A study of Mus musculus with 6 samples.

Results

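The gelatinases Mmp2 and Mmp9, the metalloproteinases Mmp11, Mmp14, Mmp15 and Mmp19 and the inhibitors Timp1 to Timp4 were followed in mouse mammary tumours that did or did not carry a urokinase transgene. These members, and the gene lists used below, were chosen with earlier results of these data known, so counts within them only describe the data. Probes were then taken by gene symbol alone, as every probe that the platform annotation gives to one of these 10 symbols. This gave 14 of the 45281 probes on the array and 9 of its 19040 named genes. Mmp15, a membrane-type metalloproteinase, has no probe of that name, and its expression was not analysed here.

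The tumours grew from 4T1 cells, a mammary carcinoma line of the BALB/c strain, transduced with a lentivirus that carried mouse urokinase-type plasminogen activator (uPA) or with the empty lentivirus. Cells of either kind were placed in the fifth mammary fat pad of female BALB/c mice aged 8 to 10 weeks, and all tumours were taken on day 7. The groups were 3 empty vector tumours and 3 uPA overexpression tumours, named here by those titles, each read on 1 Illumina MouseWG-6 BeadChip. The sources used here name neither the promoter that drives uPA nor whether each tumour came from its own mouse or the cells from 1 clone. The p-values therefore measure the spread between these samples only, and 6 arrays limit the precision. Values are log2 intensities after background correction and quantile normalisation, and a difference is the mean of the group labelled uPA overexpression minus that of the empty vector group, with its standard error (SE). An adjusted p is corrected over all genes tested unless it is said to be over probes.

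Matrix metalloproteinases are zinc enzymes that cut collagens and other proteins outside the cell. Most are made as inactive precursors, and plasmin, which uPA produces, can activate several of them. Gelatinases cut denatured collagen and the type IV collagen of basement membranes. TIMPs bind the active site of these enzymes and block it, and TIMP2 together with the membrane enzyme MMP14 also serves to activate pro-MMP2. In tumours, fibroblasts are a known source of MMP2, MMP11, MMP14 and TIMPs, and neutrophils and macrophages of MMP9.

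Of the 45281 probes, 43.6% to 46.1% were above background on each array (detection p under 0.05). The epithelial keratin genes Krt8 and Krt18 were above background on all 6 arrays, while Epcam was so on none. Plau, which encodes uPA, fell by 0.80 in the tumours labelled uPA overexpression (adjusted p = 0.0327 by limma, SE 0.154). Its probe thus goes against their label, but whether this probe reads the transgene was not tested. Each direction below is that of the label. Leaving out any 1 array ended the Plau call (adjusted p 0.0519 to 0.110). The array uPA overexpression 3 was highest in skeletal muscle genes, followed by empty vector 3. Acta1, a muscle actin, read 12.12 in log2 intensity on the first, 10.18 on the second and between 4.74 and 8.30 on the other arrays. Without uPA overexpression 3 the difference was -1.38 for Mmp9, 0.10 for Mmp2, 0.23 for Mmp11, -0.22 for Mmp14 and 0.10 for Mmp19. In the same setting it was -0.66 for Timp1, -0.08 for Timp2 and -0.51 for Timp3.

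Of the 10 members, 8 could be tested, and the probe that stood for each of these was above background on all 6 arrays. The comparison asks whether expression of these genes differed between tumours labelled uPA overexpression and empty vector tumours. Across the array, limma called 583 of 10837 genes, or 5.38%, at an adjusted p under 0.05, of which 2.3% of all genes were higher and 3.08% lower in the tumours labelled uPA overexpression. Of the 8 tested members 1 was called, Mmp9, which fell. At an unadjusted p under 0.05 stood 4 members, Mmp9, Mmp11, Timp1 and Timp3, beside 21.3% of all genes. The groups did not overlap for 4 members (Mmp9, Mmp14 and Timp1 lower, Mmp11 higher), beside 29.7% of all tested genes (14.2% higher and 15.5% lower). The difference was below 0 for 5 of the 8 members and for 50.5% of all genes, and its median was -0.12 over the members and -0.0028 over all genes. The plot of the tested members on each array shows these values.

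**Figure D1:**
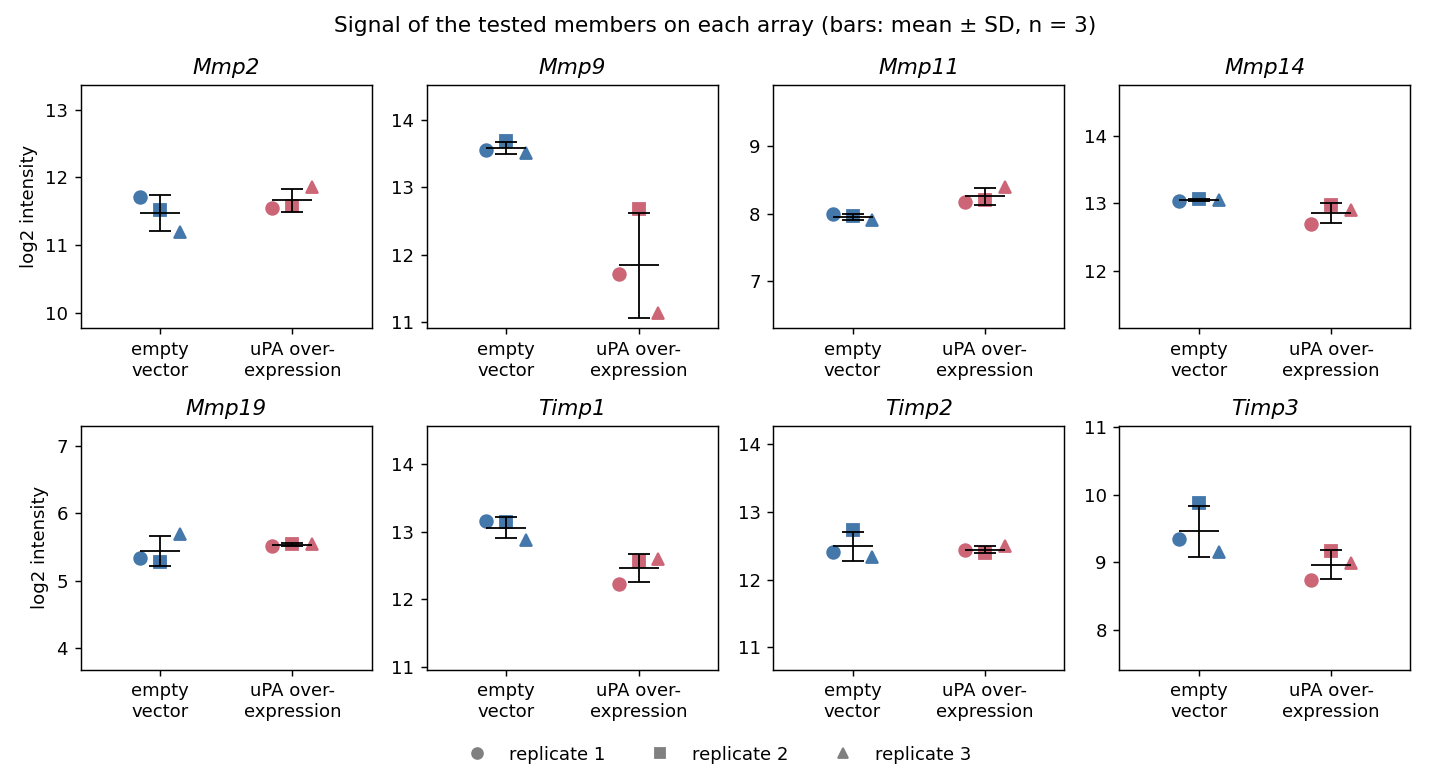
Log2 intensity of the 8 tested members on each array (y axis; each panel spans the same number of log2 units), by group (x axis), with replicate numbers as symbols and the mean ± SD of 3 arrays in black. Mmp9 lies between 11.14 and 12.68 in the tumours labelled uPA overexpression and between 13.50 and 13.68 in the empty vector tumours, while the groups of Mmp2, Mmp19, Timp2 and Timp3 overlap.

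Mmp9 encodes gelatinase B. Its raw intensity was 12717, 11982 and 11128 on empty vector arrays 1, 2 and 3, and 3318, 6479 and 2457 on the arrays labelled uPA overexpression 1, 2 and 3. After background correction and normalisation the same probe (ILMN_2711075) read 13.55, 13.68 and 13.50 against 11.72, 12.68 and 11.14 in log2 intensity. All 3 arrays labelled uPA overexpression were below all 3 empty vector arrays, with uPA overexpression 2 nearest to them.

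The mean of Mmp9 was 13.58 ± 0.09 (SD, n = 3) in empty vector tumours and 11.85 ± 0.78 (SD, n = 3) in those labelled uPA overexpression. It fell by 1.73 in log2 intensity (95% interval -2.54 to -0.92, SE 0.346, adjusted p = 0.0365 by limma), a fold of 3.32, which was the 22nd lowest difference among 10837 genes. In bulk tumours, fewer cells that express a gene and less RNA per cell cannot be told apart. The call was lost without any 1 array other than uPA overexpression 2: with empty vector 1, 2 or 3 left out it had an adjusted p of 0.105, 0.0710 or 0.106, and with uPA overexpression 1 or 3 left out 0.123 or 0.0755. Without uPA overexpression 2 the difference was -2.14 (adjusted p = 0.00994), and without uPA overexpression 3, the array highest in muscle genes, it was -1.38.

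The spread of Mmp9 between the tumours labelled uPA overexpression was wide. Only 0.895% of tested genes had a larger SD among these 3 arrays, where the median SD was 0.126. Among the empty vector arrays 74.1% of genes had a larger SD than Mmp9. The plot of arrays left out in turn shows the size of the difference without each array.

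**Figure D2:**
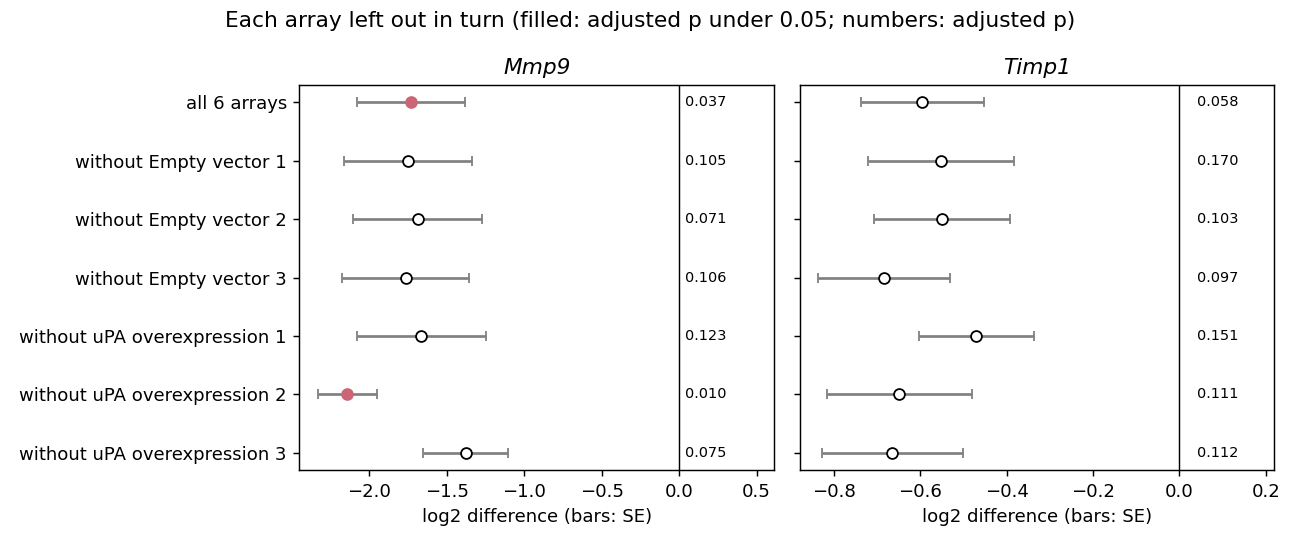
Log2 difference of Mmp9 and Timp1, uPA overexpression minus empty vector (x axis), with all 6 arrays and with each array left out in turn (y axis). Bars are SE, filled points have an adjusted p under 0.05 and the adjusted p is printed beside each point. Mmp9 ranges from -2.14 to -1.38 and Timp1 from -0.68 to -0.47 when 1 array is left out.

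Neutrophil genes are given beside Mmp9 because neutrophils store gelatinase B. Of 9 neutrophil markers with a probe 6 were tested, of which 0 rose and 1 fell. Of all tested genes 2.3% were called higher and 3.08% lower. The summed intensity of the tested markers was 2010 to 2570 in empty vector tumours and 1110 to 2040 in those labelled uPA overexpression. Mpo and Ngp, which encode granule proteins of neutrophil precursors, were above background on no array. The marker that fell, the calprotectin subunit gene S100a9, read 9.30, 8.97 and 9.49 in log2 intensity in empty vector tumours 1, 2 and 3. It read 8.05, 8.46 and 7.71 in the tumours labelled uPA overexpression 1, 2 and 3, the same order as Mmp9 on those 3 arrays. On the empty vector arrays its order was the reverse of that of Mmp9, which read 13.55, 13.68 and 13.50 there. Of the 6 tested markers 5 had a difference below 0, while Ltf differed by 0.56, with no call. For macrophages, another source of MMP9, 9 markers were tested, of which 7 rose and 0 fell. Their summed intensity was 16500 to 17400 in empty vector tumours and 26900 to 32000 in those labelled uPA overexpression. The part of these cells in the Mmp9 result was not tested.

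The genes with the profile most like that of Mmp9 were found by the root mean square difference over the 6 arrays between log2 profiles centred on their own mean, in which the spread of Mmp9 itself was 0.976. The nearest was Cldn4, a claudin gene of epithelial tight junctions, at 0.190. It was followed by the neurotrypsin gene Prss12 at 0.227, the adrenomedullin gene Adm at 0.230, the heparan sulphate sulphotransferase gene Hs6st2 at 0.298 and the small GTPase gene Rab15 at 0.305. Cldn4 read 12.38, 12.76 and 12.46 in empty vector tumours and 10.86, 11.46 and 10.48 in those labelled uPA overexpression. This likeness describes 6 arrays and has no test.

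Mmp2, the gelatinase A gene, read 11.71, 11.51 and 11.19 in empty vector tumours 1, 2 and 3 and 11.55, 11.58 and 11.86 in tumours labelled uPA overexpression 1, 2 and 3. The groups overlapped, and empty vector 3 was lowest and uPA overexpression 3 highest. The difference was 0.20 (SE 0.160, adjusted p = 0.537 by limma), with a 95% interval of -0.18 to 0.57. Without uPA overexpression 3 or another single array it lay between 0.06 and 0.31, with no call. The profiles nearest to that of Mmp2, whose own spread over the arrays was 0.204, were those of Acyp2 at 0.0487, Oscar at 0.0523, Icosl at 0.0616, Rangap1 at 0.0640 and Pif1 at 0.0696. This likeness has no test either, and Oscar and Icosl were not above background on every array.

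Mmp14 encodes MT1-MMP, a membrane-bound collagenase that furin-like convertases activate inside the cell. Its probe ILMN_1240726 read 13.03, 13.07 and 13.05 in empty vector tumours and 12.69, 12.98 and 12.90 in those labelled uPA overexpression. All 3 arrays labelled uPA overexpression were lower, and uPA overexpression 1 was lowest. The difference of -0.19 (SE 0.111, 95% interval -0.45 to 0.06, adjusted p = 0.362 by limma) did not pass the test. The other Mmp14 probe (ILMN_1225091) was above background on no array, so it gives no second reading of the gene.

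Mmp11 encodes stromelysin 3, an enzyme of stromal fibroblasts that is also activated by furin. It read 7.99, 7.96 and 7.91 in empty vector tumours and 8.17, 8.20 and 8.40 in those labelled uPA overexpression. The second group was higher on all 3 arrays, which makes it the only tested member whose groups did not overlap in the upward direction. Its difference was 0.30 (SE 0.108, 95% interval 0.05 to 0.56, unadjusted p = 0.0247), and it did not pass after adjustment over all genes (adjusted p = 0.169 by limma). It was called under 0 of 17 other settings (0.23 to 0.35).

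Mmp19, which encodes a secreted enzyme first described in inflamed joints, lay close to background. Its probe ILMN_2595908 read 5.34, 5.28 and 5.69 in empty vector tumours and 5.52, 5.55 and 5.54 in those labelled uPA overexpression, and the lowest signal counted as above background was 4.92 to 5.04 across the 6 arrays. The difference was 0.10 (SE 0.132, adjusted p = 0.707 by limma), and background limits how well it could be seen. The other Mmp19 probe was above background on no array.

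The 7 members that the RefSeq promoter table used here holds (assembly GRCm38.p6), which leaves out Mmp2, Mmp9 and Mmp19, were searched on both strands for 3 motifs in the 250 bases before the gene start. These were the AP-1 site TGANTCA, the ETS site AGGAAG and the GC box GGGCGG, since AP-1 and ETS factors are known to act on many Mmp and Timp genes. TGANTCA was found in 0 of the 7 members (Mmp11, Mmp14, Mmp15, Timp1, Timp2, Timp3 and Timp4), and in 6.75% of all 32851 such windows. AGGAAG was found in 4, Mmp14, Timp1, Timp3 and Timp4, and in 29.5% of all windows. GGGCGG was found in 6, all but Timp4, and in 32.7% of all windows. The windows of the 3 tested TIMPs are shown, with every match in capitals, because the inhibitors are compared with each other next.
Timp1 (chrX:20869916-20870165, plus strand): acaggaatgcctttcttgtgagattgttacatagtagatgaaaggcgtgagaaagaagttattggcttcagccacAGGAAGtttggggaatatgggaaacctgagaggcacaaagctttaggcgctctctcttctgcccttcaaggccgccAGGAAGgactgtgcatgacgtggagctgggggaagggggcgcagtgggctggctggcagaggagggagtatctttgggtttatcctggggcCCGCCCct
Timp2 (chr11:118355412-118355661, minus strand): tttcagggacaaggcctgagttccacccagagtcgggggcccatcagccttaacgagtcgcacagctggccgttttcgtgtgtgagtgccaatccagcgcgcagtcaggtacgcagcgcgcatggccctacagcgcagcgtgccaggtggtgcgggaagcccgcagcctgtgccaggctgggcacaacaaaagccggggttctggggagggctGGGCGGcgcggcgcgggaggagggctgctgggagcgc
Timp3 (chr10:86300162-86300411, plus strand): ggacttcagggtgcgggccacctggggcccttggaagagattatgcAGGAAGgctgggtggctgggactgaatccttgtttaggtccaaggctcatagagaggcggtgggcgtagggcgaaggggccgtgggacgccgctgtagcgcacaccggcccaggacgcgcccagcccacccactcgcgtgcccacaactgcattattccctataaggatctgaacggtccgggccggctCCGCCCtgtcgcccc
Timp1 holds 2 ETS matches, which begin 175 and 99 bases before the start, and 1 reversed GC box. Timp2 holds 1 GC box and no ETS match, and Timp3 holds 1 ETS match and 1 reversed GC box. These matches describe the letters only and were not tied to the expression values by any test.

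Among the inhibitors, Timp1 had the lowest difference. TIMP1 is known as a partner of pro-MMP9, to which it binds. The probe ILMN_3103896 read 13.15, 13.14 and 12.88 in empty vector tumours 1, 2 and 3 and 12.22, 12.57 and 12.59 in tumours labelled uPA overexpression 1, 2 and 3. The second Timp1 probe (ILMN_2769918) read 13.01, 13.09 and 12.77 against 12.10, 12.58 and 12.38. On both probes all tumours labelled uPA overexpression were below all empty vector tumours, with uPA overexpression 1 lowest.

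The difference of Timp1 was -0.60 on the first probe (SE 0.143, 95% interval -0.93 to -0.26, adjusted p = 0.0584 by limma) and -0.61 on the second (SE 0.154, adjusted p = 0.0826 over all 20434 probes tested, of which 3.57% were called). Neither passed the test. With the gene's p just above the threshold, the call depended on the processing, and Timp1 was called under 7 of 17 other settings. Adjusted p was 0.0253 with the deposited processed values and 0.0269 without background correction, at differences of -0.61 and -0.59. The study's own criteria were a change of over 1.5-fold together with p under 0.05, taken here as p before adjustment. They were applied to the limma fit used here, not to the study's own values and test. By these, 2 members were lower, Mmp9 and Timp1 (fold 1.51, unadjusted p = 0.00374), and 0 higher. Of all genes 7.55% passed (4.38% lower and 3.17% higher).

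Timp3 encodes an inhibitor that stays bound to the matrix and also blocks ADAM proteases. Its brightest probe (ILMN_2741096) read 9.35, 9.88 and 9.15 in empty vector tumours and 8.74, 9.17 and 8.99 in those labelled uPA overexpression, and the groups overlapped. The difference of -0.49 (SE 0.205, 95% interval -0.97 to -0.01, adjusted p = 0.227 by limma) did not pass. It was -0.28 without empty vector 2, the highest array. The other 2 probes lay near background. ILMN_2614759 gave -0.45 (adjusted p = 0.136 over probes), with groups that did not overlap. ILMN_1232928 gave -0.12 (adjusted p = 0.641 over probes), with groups that overlapped and readings of 4.97 to 5.30. The 3 probes shared a sign, and background limits a comparison of size.

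Timp2 read 12.41, 12.74 and 12.34 in empty vector tumours and 12.44, 12.39 and 12.50 in those labelled uPA overexpression. The groups overlapped, and empty vector 2 was the highest array. The difference was -0.05 (SE 0.130, adjusted p = 0.859 by limma), with a 95% interval of -0.36 to 0.25, and it was 0.07 without empty vector 2. Timp4, an inhibitor known from heart and fat, was above background on 0 of 6 arrays, with detection p from 0.213 to 0.902, and was not tested. Fat cell genes of the mammary pad were measured in the same tumours: of 6 adipocyte markers with a probe 3 were tested, with a summed intensity of 97.9 to 621 in empty vector tumours and 149 to 367 in those labelled uPA overexpression, while Plin1, Fabp4 and Retn were above background on no array. The plot of member probes sets the 11 tested probes beside each other.

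**Figure D3:**
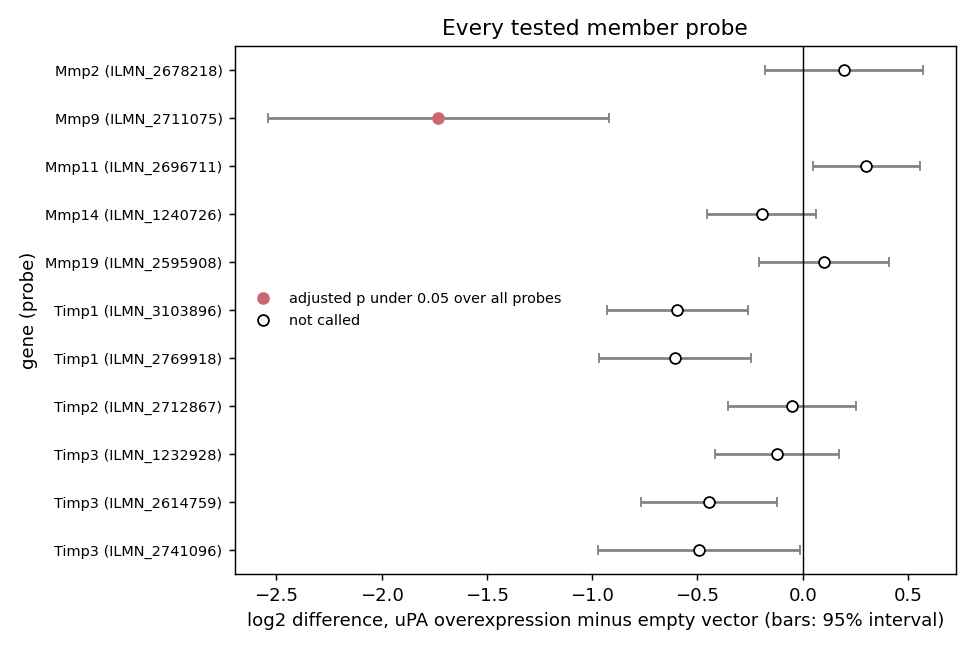
Log2 difference, uPA overexpression minus empty vector (x axis), of the 11 tested member probes (y axis), with 95% intervals from limma. Filled points have an adjusted p under 0.05 over all 20434 probes. The Mmp9 probe at -1.73 (adjusted p = 0.0438 over probes) is the 1 filled point, and both Timp1 probes lie near -0.60.

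Enzyme and inhibitor were then compared within each array, as the log2 signal of the enzyme minus that of the inhibitor, set to 0 at the mean of the empty vector arrays. Only changes between arrays have a meaning here, because signals of different probes are not on one scale. Mmp9 minus Timp1 was -0.12, 0.02 and 0.10 in empty vector tumours 1, 2 and 3 and -1.01, -0.41 and -1.98 in tumours labelled uPA overexpression 1, 2 and 3. Its groups did not overlap, with a difference of means of -1.13: on each array labelled uPA overexpression, Mmp9 was further below its empty vector mean than Timp1 was. Mmp2 minus Timp2 was 0.33, -0.20 and -0.13 against 0.13, 0.22 and 0.39, and Mmp14 minus Timp2 was 0.07, -0.22 and 0.15 against -0.31, 0.03 and -0.16. Both of these overlapped between the groups. No test was run on these differences.

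Genes of the transcription factors known to act at Mmp promoters were compared next. Of 12 listed 10 were tested, of which 0 rose and 4 fell, with a median of -0.29, beside 5.38% of all genes called and 3.08% called lower. Those that fell encode AP-1 subunits. Junb fell by 1.07 (SE 0.165, adjusted p = 0.0181 by limma) and Fosb fell by 0.74 (SE 0.111, adjusted p = 0.0181). Fos fell by 0.84 (SE 0.155, adjusted p = 0.0294) and Jund fell by 0.61 (SE 0.130, adjusted p = 0.0434). The call of Jund was lost without any 1 array (adjusted p 0.0584 to 0.127) and that of Fos without any but empty vector 2 (0.0718 to 0.0929 where lost). Leaving out any array but empty vector 2 and uPA overexpression 2 ended the calls of Junb (adjusted p up to 0.0753) and Fosb (up to 0.0712). Jun itself differed by -0.08, and the ETS genes Ets1, Ets2 and Etv4 by -0.09, -0.39 and -0.07, none of which passed.

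The other metalloproteinase genes of the Mmp family give the setting of these members. Of 17 listed 10 were tested, of which 0 rose and 3 fell, with a median of -0.67, beside 5.38% of all genes called. The stromelysin genes Mmp3 and Mmp10 fell by 1.25 (SE 0.206, adjusted p = 0.0220 by limma) and fell by 3.09 (SE 0.580, adjusted p = 0.0301), and the collagenase gene Mmp13 fell by 2.33 (SE 0.411, adjusted p = 0.0258). Leaving out empty vector 1 or 3, or uPA overexpression 1 or 3, ended the calls of Mmp10 (adjusted p up to 0.102) and Mmp13 (up to 0.0929). That of Mmp3 ended when empty vector 1 or 3 or uPA overexpression 3 was left out (adjusted p up to 0.0824). The macrophage elastase gene Mmp12 read 11.03, 10.53 and 11.12 against 8.28, 9.92 and 7.75, a difference of -2.24 just outside the threshold (adjusted p = 0.0509). On the arrays labelled uPA overexpression, replicate 2 was the highest for Mmp9, Mmp10, Mmp12 and Mmp13, which read 12.68, 9.37, 9.92 and 12.07 there. Mmp3 instead was 11.24 in replicate 2 and 11.27 in replicate 3. The plot of the family places the members in this order.

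**Figure D4:**
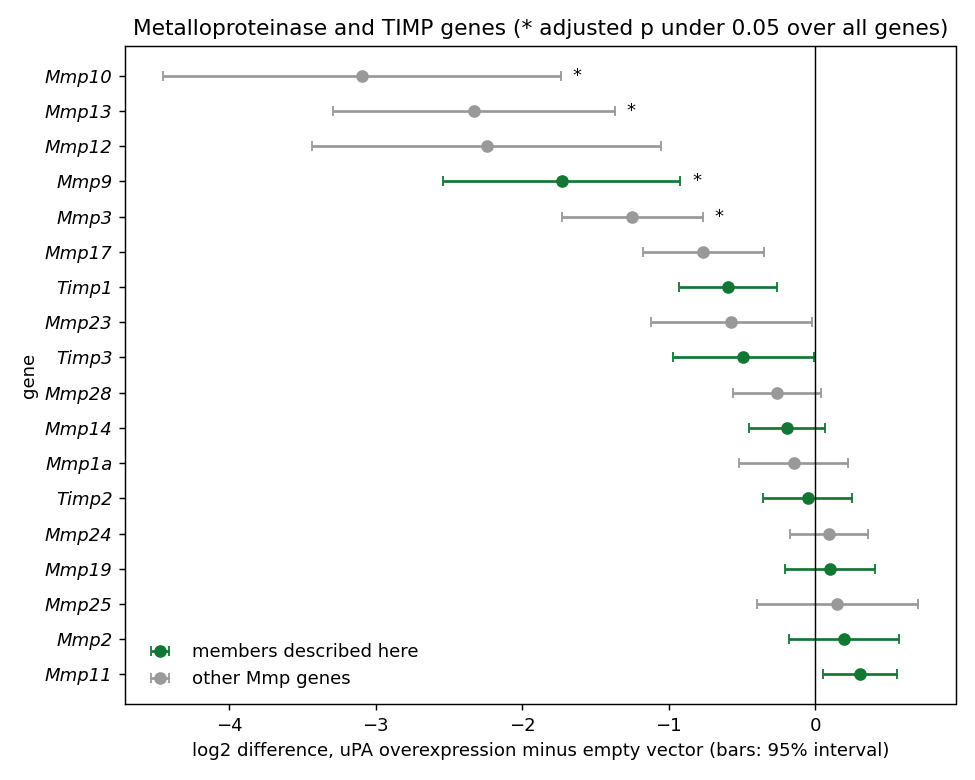
Log2 difference, uPA overexpression minus empty vector (x axis), of the 18 tested metalloproteinase and TIMP genes (y axis, sorted), with 95% intervals from limma and members described here in green. Asterisks mark an adjusted p under 0.05 over all genes: Mmp9 at -1.73 lies with Mmp10, Mmp13 and Mmp3, while Mmp2, Mmp14, Mmp19 and Timp2 have intervals that include 0.

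Activators and regulators of these enzymes were measured as well. Of 15 listed 12 were tested, of which 0 rose and 1 fell, Plau, with a median of -0.41. Of all tested genes 2.3% were called higher and 3.08% lower. Furin, the convertase that activates MMP11 and MMP14, read 12.54, 12.38 and 12.54 against 12.02, 12.23 and 12.11. It was lower on all 3 arrays labelled uPA overexpression, but its difference of -0.36 did not pass (SE 0.109, adjusted p = 0.109 by limma). Cd44, a hyaluronan receptor that can hold MMP9 at the cell surface, differed by -0.45 (SE 0.109, adjusted p = 0.0605), and Thbs2, which encodes a thrombospondin that clears MMP2, by -1.09 (SE 0.307, adjusted p = 0.0944). The call of Cd44 was made under 8 of 17 other settings and that of Furin under 4.

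Genes of matrix proteins that metalloproteinases cut were tested in 14 of 16 cases, of which 0 rose or fell at the threshold, with a median of -0.31. Of these 14 genes 8 had groups that did not overlap and 6 had an unadjusted p under 0.05, beside 29.7% and 21.3% of all genes. The tenascin gene Tnc differed by -0.99 (SE 0.249, adjusted p = 0.0684 by limma) and the biglycan gene Bgn by -0.69 (SE 0.220, adjusted p = 0.133). With the mean of all its tested probes, Tnc differed by only -0.55 (adjusted p = 0.245 by limma). It was called without background correction (0.0372), with offset 50 (0.0410) and with the deposited processed values (0.0377), but under no other setting. The elastin gene Eln differed the other way, by 0.91 (SE 0.292, adjusted p = 0.134), and the nidogen gene Nid1 by -0.53 (SE 0.171, adjusted p = 0.137). The type IV collagen genes Col4a1 and Col4a2, substrates of both gelatinases, differed by -0.22 and -0.15, and neither passed.

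Fibroblast markers are given for the members that fibroblasts make. Of 10 tested 0 rose and 1 fell, the receptor gene Pdgfrb, by 0.80 (SE 0.135, adjusted p = 0.0225 by limma). Their summed intensity was 16800 to 22600 in empty vector tumours and 15400 to 20100 in those labelled uPA overexpression, and 10 of 10 were above background on some array. Epithelial markers, of which 8 were tested, had 4 that fell and 0 that rose, with sums of 41800 to 46500 and 25500 to 30300. Endothelial markers had 0 called of 7, with sums of 4490 to 5160 and 3440 to 5090, and mast cell markers had 5 that rose of 6, with sums of 854 to 1180 and 2680 to 3530. Skeletal muscle markers had 0 called of 5, with sums of 1610 to 3340 and 1610 to 8000. Beside these counts of markers, 2.3% of all tested genes were called higher and 3.08% lower. The part of these cell types, epithelial cells among them, in the values of Mmp9, Mmp2, Mmp11, Mmp14 and the TIMPs was not tested.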

How the data were processed

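Biotin-labelled cRNA of 6 tumours was hybridised to Illumina MouseWG-6 arrays (version 2.0), per the labels. The deposited intensity values are raw bead summaries. The deposited detection p-value column rises to 1 for bright probes and was turned round. The authors' processed log2 values came from GeneSpring GX 11.0 (series design text), each probe centred on a level that is not stated, with column medians of 0.00197 to 0.00419.

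Raw and processed tables name probes differently and were joined by value: quantile-normalised raw log2 rows were paired with mutual nearest processed rows if the next row was 3 times as far or more. Of 45281 rows 45217 matched. The GEO platform table gives 1 symbol to 34885 probes (34845 matched), several to 18 and none to 10378, and probes with 1 symbol were named.

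Background was corrected by normexp (offset 16, negative controls inferred from the detection p-values), followed by quantile normalisation and log2. Probes whose detection p was under 0.05 on 3 arrays or more were tested two-sided with limma 3.58.1 (R 4.3.3; other steps in Python 3.11) without covariates and with Benjamini-Hochberg adjustment. A gene was its tested probe with the highest mean. The fit was tested on simulated data, where it recovered 43.4% of genes changed 1.5-fold, 92.5% at 2-fold and 98.3% at 3-fold. Of the calls there 5.13% were false. A change of about 1.5-fold could thus often be missed. Named were all members, Plau, up to 4 genes of smallest p per list and the 5 nearest profiles of Mmp2 and Mmp9, and a few list genes after their values were seen. Members and lists were chosen with earlier results of these data known. Same-numbered arrays did not deviate together (correlations -0.19, -0.26 and 0.07). The 17 alternatives changed background correction, scaling, filter, values, model or probe choice or left out 1 array.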

Additional observations from a re-analysis of the deposited data

How the results depend on the processing

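The number of called members was 2 (Mmp9 and Timp1) without background correction, with offset 50, with scaling to the 75th percentile, with a filter on all 6 arrays, with the deposited processed values and with array weights, and 0 without a filter, with a replicate block and with an ordinary t statistic; in these 3 settings 3 members had an unadjusted p under 0.05. It ran from 0 to 1 when single arrays were left out. The number of called genes was 77 with a replicate block, 1071 with array weights and 0 with an ordinary t statistic, where 2228 had an unadjusted p under 0.05, and ran from 22 to 596 when single arrays were left out. The replicate numbers were not taken as pairs, since only a number is shared. Mmp9 kept its sign in all 17 alternatives (-2.14 to -1.38) and was called in 8 of them (adjusted p 0.00994 to 0.162). It lost its call without a filter (0.0683), with a replicate block (0.0576), with a trended prior (0.0718), with an ordinary t statistic (0.162) and without any 1 array other than uPA overexpression 2. With the trended prior the called member was Timp1 (adjusted p = 0.0175) instead. Of the other named metalloproteinases, Mmp10 and Mmp13 lost their calls without a filter (0.0610 and 0.0505), with a replicate block (0.0902 and 0.0659) and with the trended prior (0.0755 and 0.0617), and Mmp3 with the block (0.0563). The block also ended the calls of Plau (0.0811), Jund (0.114), Fosb (0.0702) and Fos (0.0606), and the ordinary t statistic that of every gene. The difference of Timp2 turned to 0.034 with array weights and ranged from -0.13 to 0.069 when single arrays were left out, and that of Oscar ranged from -0.043 to 0.22. None of these was called. The cause of these changes was not tested. Mmp2, Mmp11, Mmp14, Mmp19 and Timp3 were called in none of the 17 alternatives and kept their sign. The lowest signals, those of Mmp19 and the fainter Timp3 probes, lie near background, which limits what could be seen of them.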
